A study of Mus musculus with 8 samples.

Results

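Imprinted genes were followed by cluster in mouse embryonic stem cells (ESCs) in which Rad21, the kleisin subunit of the cohesin ring, had been depleted by RNA interference. The set holds 46 named genes, named for their place in imprinted clusters and not by a threshold on their values. Of these, 41 were measured among the 18193 genes that the array names, each read at its brightest probe set whose annotation gives that gene's symbol alone. H19, Rtl1, Dio3, Slc22a3 and Zrsr1 had no probe set of that kind. The 1 probe set of H19 also carries Mir675, so it was not used.

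Both groups were the ESC line R1/E, untreated except for transfection of esiRNA, a pool of short interfering RNAs cut by an enzyme from a longer double strand. In one group the esiRNA was directed against Rad21, and in the other against luciferase (Luc), a firefly gene that mouse cells lack, each as 4 arrays that the labels call biological replicates. Wells of 80000 cells received 800 ng esiRNA, total RNA was taken after 48 h, and the Affymetrix mouse arrays were read as log2 values after GCRMA, which corrects for background by the GC content of the probes, brings the arrays to 1 distribution and sums up the probes of a probe set. The labels do not say what else the replicates shared, so the p-values measure the spread between these arrays.

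Imprinted genes are expressed mainly from the copy inherited from one parent. Most lie in clusters, each under an imprinting control region that is methylated on one parental chromosome only, and at some of these regions CTCF, which stops the sliding of cohesin, binds the unmethylated copy. The domains code for many regulators of embryonic and placental growth, and imprints can be lost in cultured ESCs. An array value sums the RNA of both parental copies, so neither the allele in use nor the methylation of any control region was measured. Expressed alleles are given below as textbook background.

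Rad21 itself was lower on all 4 knock-down arrays. Its brightest probe set read 13.62, 13.42, 13.83 and 13.79 on control arrays 1 to 4 and 11.69, 11.75, 12.37 and 12.52 on knock-down arrays 1 to 4, a change of -1.58 ± 0.21 (adjusted p = 0.00222) by limma, which leaves 33.4% of the control level. The other 2 probe sets changed by -0.98 ± 0.19 (adjusted p = 0.0114) and -2.59 ± 0.19 (adjusted p = 0.000164). The control arrays did not overlap with the knock-down arrays at any of the 3 probe sets, and the residual level differed with the probe set. Replicates 1 and 2 stood apart from replicates 3 and 4 in both groups, though the labels name no batch: across probe sets, deviations from the group means correlated at 0.02 to 0.20 between control and knock-down arrays of the same set of replicates, and at -0.19 to -0.04 between arrays of different sets. Changes are given as the mean of the knock-down arrays minus the mean of the control arrays on the log2 scale, with the standard error (SE) of that difference. A gene was said to rise or fall when limma's p-value, after Benjamini-Hochberg adjustment across 45037 probe sets, was under 0.05.

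Of the 41 measured imprinted genes, 14 rose, which is 34.1%, against 10.1% of all 18193 genes. The number that fell was 5, or 12.2%, against 12.6% of all genes, and 22 did not pass the test. At an unadjusted p under 0.05 the change was positive in 17 and negative in 6, and over all 18193 genes it was positive in 2826 and negative in 3361. Over all probe sets, 14.9% were called in either direction. Of all genes 7742 had a mean under 4 in both groups, and so had 11 of the 41 imprinted genes. When probe sets with a mean under 4 over the 8 arrays were left out, 19.4% of all genes rose and 24.9% fell. That filter left 30 imprinted genes, of which 17 rose and 5 fell. Nap1l5 and Nnat passed it only through the knock-down arrays. The median change of the imprinted genes was 0.10, and that of all genes was 0.003. The rises reached 1.99 on the log2 scale and the falls -0.76, whereas over all genes the changes ran from -4.83 to 5.53. In RNA of whole cultures, a change within cells cannot be told apart from a change in the share of cells that express a gene.

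By parental copy, 8 of 19 measured genes expressed from the paternal copy rose and 3 fell, with a median change of 0.47. Among the 21 genes expressed from the maternal copy, 5 rose and 2 fell, with a median change of 0.07. The classes follow textbook alleles, some of which hold in some tissues only, as given below for Ube3a, Copg2 and Grb10. Neither the allele in use in these cells nor the difference between the parental classes was tested. Gnas, which makes maternal, paternal and biallelic transcripts, rose. The genes that rose were Plagl1, Nap1l5, Sgce, Gatm, Ndn, Cdkn1c, Nnat, Peg10, Ppp1r9a, Mest, Phlda2, Igf2r, Impact and Gnas, with Nap1l5 and Nnat starting in the low range of the array, where a change is compressed, and those that fell were Mkrn3, Mcts2, Blcap, Copg2 and Peg3. In 11 of the other genes both groups had a mean under 4, in the low range where GCRMA gathers probe sets without signal, and no statement on these genes is possible beyond that: they were Kcnq1, Slc22a18, Dlk1, Asb4, Snrpn, Usp29, Zim1, Slc22a2, Airn, Klf14 and Rasgrf1.

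**Figure D1:**
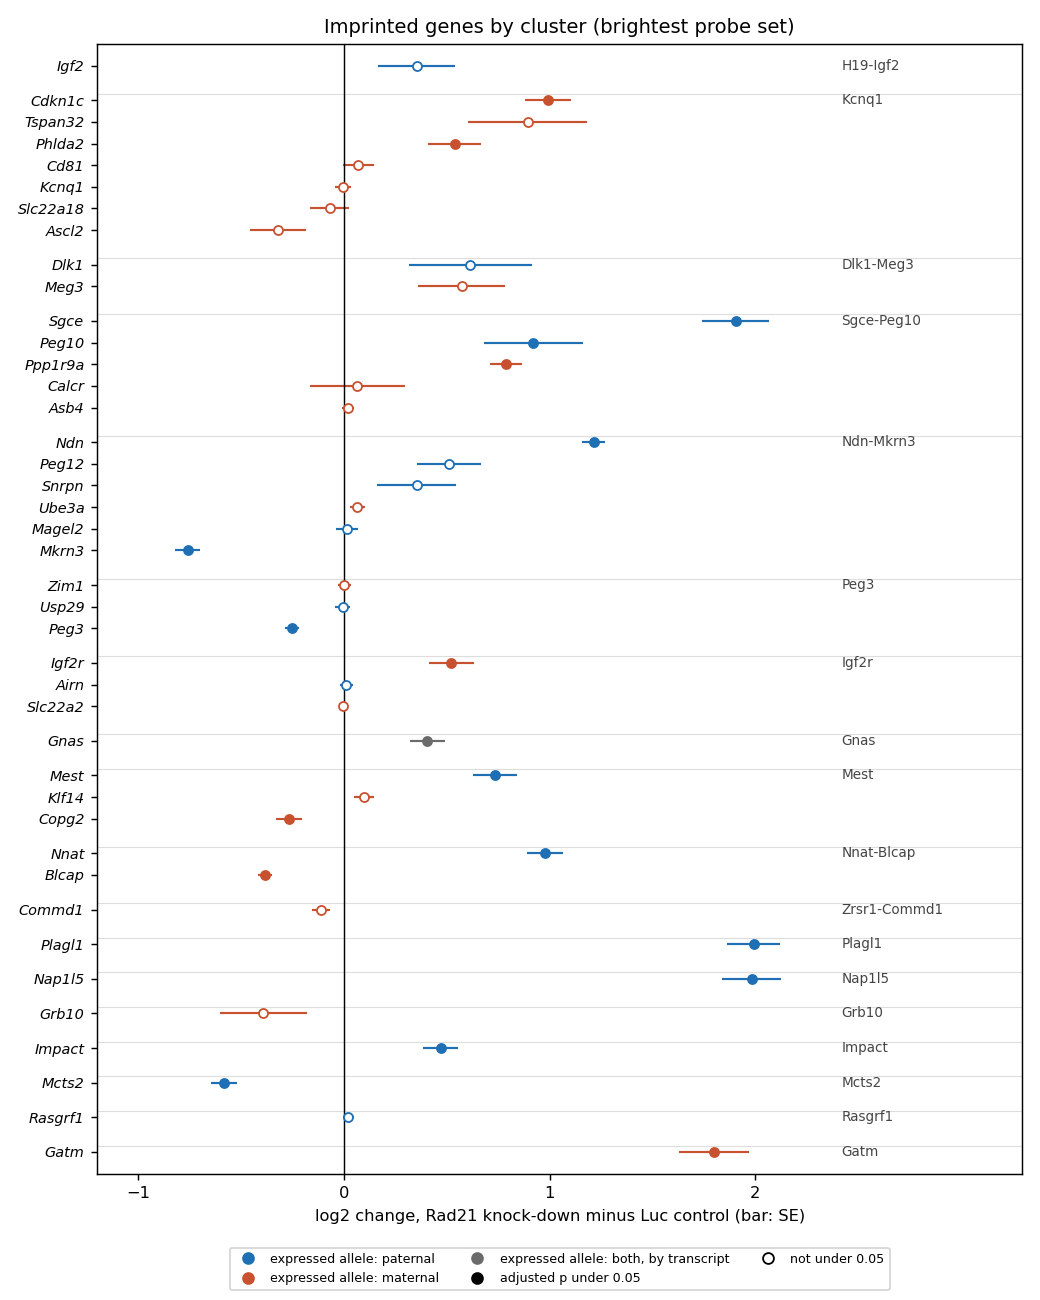
Log2 change of each measured imprinted gene at its brightest probe set, knock-down minus control, with bars of 1 SE and 4 arrays per group. Rows are grouped by imprinted cluster, colour gives the expressed parental copy, and filled points have an adjusted p under 0.05; 14 filled points lie to the right of 0 and 5 to the left, and within the clusters of Ndn, Mest and Nnat filled points lie on both sides.

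Promoters are shown for 6 called genes, 4 that carry and 2 that lack the letters TGCCGC, the sequence that the imprint keeper ZFP57 binds when methylated. They are a choice among the called genes, so their share of matches does not stand for that of the called genes. Of the other called genes with a change of at least 0.5 and a promoter found, Gatm, Ppp1r9a, Phlda2 and Igf2r hold no match. Mest holds matches, and none of these genes is shown. Sequences are from RefSeq on the mouse assembly GRCm38.p6, from 250 bases before to 50 bases after an annotated start, written 5′ to 3′ on the strand of the gene. Capitals mark TGCCGC or its reverse complement. All shown genes are expressed from the paternal copy.
Plagl1, chr10:13090582-13090881, plus strand: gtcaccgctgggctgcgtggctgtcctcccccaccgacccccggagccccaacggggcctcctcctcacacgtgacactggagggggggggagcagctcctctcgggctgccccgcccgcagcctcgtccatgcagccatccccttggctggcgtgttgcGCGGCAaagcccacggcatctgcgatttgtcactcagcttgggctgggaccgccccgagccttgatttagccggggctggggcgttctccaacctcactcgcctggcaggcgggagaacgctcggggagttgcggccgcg
Nap1l5, chr6:58907077-58907376, minus strand: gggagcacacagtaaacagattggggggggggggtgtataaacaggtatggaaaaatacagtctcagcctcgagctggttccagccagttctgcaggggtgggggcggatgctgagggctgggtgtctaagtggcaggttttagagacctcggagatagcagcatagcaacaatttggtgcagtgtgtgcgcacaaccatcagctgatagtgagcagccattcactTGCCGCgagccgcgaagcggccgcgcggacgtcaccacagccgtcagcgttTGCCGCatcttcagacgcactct
Nnat, chr2:157559828-157560127, plus strand: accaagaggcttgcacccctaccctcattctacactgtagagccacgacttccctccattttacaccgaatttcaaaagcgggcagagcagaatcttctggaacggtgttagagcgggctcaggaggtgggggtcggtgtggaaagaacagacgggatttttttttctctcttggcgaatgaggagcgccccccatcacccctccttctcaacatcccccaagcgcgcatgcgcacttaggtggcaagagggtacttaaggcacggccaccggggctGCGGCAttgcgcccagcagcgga
Mcts2, chr2:152686898-152687197, plus strand: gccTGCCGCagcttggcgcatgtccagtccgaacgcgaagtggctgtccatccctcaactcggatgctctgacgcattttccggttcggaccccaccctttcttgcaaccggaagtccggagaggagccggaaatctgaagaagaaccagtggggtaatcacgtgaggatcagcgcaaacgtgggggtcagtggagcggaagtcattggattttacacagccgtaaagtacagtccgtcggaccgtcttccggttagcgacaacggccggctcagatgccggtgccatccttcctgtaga
Ndn, chr7:62348027-62348326, plus strand: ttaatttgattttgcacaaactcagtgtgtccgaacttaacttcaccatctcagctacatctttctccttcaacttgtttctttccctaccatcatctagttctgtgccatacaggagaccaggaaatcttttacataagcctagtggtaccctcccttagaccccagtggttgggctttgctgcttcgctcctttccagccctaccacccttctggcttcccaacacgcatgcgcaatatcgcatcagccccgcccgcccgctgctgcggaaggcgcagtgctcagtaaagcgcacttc
Mkrn3, chr7:62420104-62420403, minus strand: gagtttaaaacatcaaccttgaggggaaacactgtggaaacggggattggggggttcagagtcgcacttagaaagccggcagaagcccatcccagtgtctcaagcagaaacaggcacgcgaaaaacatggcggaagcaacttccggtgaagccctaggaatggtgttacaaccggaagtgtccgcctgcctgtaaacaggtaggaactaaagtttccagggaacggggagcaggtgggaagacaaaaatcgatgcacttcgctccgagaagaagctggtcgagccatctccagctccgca
The promoters of Plagl1, Nnat and Mcts2 hold 1 match each and that of Nap1l5 holds 2, whereas those of Ndn and Mkrn3 hold 0. Plagl1, Nap1l5, Nnat and Ndn rose, and Mcts2 and Mkrn3 fell.

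Promoter sequences were found for 38 of the 46 genes, 55 promoters in all, since several genes have more than 1 start. TGCCGC on either strand stood in 15 of the 55, against 11.6% of 32851 mouse promoters of the same length. The genes that rose had 16 promoters, which cover 10 of the 14, since Cdkn1c, Sgce, Peg10 and Impact were not analysed here. Of these 16 promoters 5 held it, and of the 5 promoters of genes that fell 2 held it. The letters GGNGGCAG, the 3′ part of the core motif of CTCF, stood in 9 of the 55, against 12.6% of all promoters, with 2 of the 16 and 0 of the 5. In 2 of the 55 promoters a match of one motif overlapped a match of the other. The imprinted promoters were rich in CpG, with a median of 16 CpG per 300 bases against 7 over all promoters. TGCCGC holds a CpG itself, and the shares of promoters with a match were not compared at equal CpG content. Starts of 1 gene overlap in part, and a match is a run of letters and no evidence of binding.

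Plagl1 and Nap1l5 had rises of like size at the top of the set. Plagl1 encodes a zinc finger transcription factor that restrains cell division and is known to act on other imprinted genes. Plagl1 read 9.57, 9.53, 9.04 and 9.10 on control arrays 1 to 4 and 11.26, 11.27, 11.38 and 11.30 on knock-down arrays 1 to 4. The groups did not overlap, and the change was 1.99 ± 0.13 (adjusted p = 9.19e-05), or 3.98-fold. It was larger in replicates 3 and 4, at 2.27, than in replicates 1 and 2, at 1.72, and the difference between these sets passed the test (adjusted p of the interaction in limma = 0.0323). All of this rests on 1 probe set, of a kind whose probes can match several transcripts. The other 2 probe sets of Plagl1 had means between 2.33 and 2.48 in both groups, so the call is lost when probe sets of that kind are left out.

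In the Kcnq1 cluster on chromosome 7, whose protein-coding genes are expressed from the maternal copy, 2 of 7 genes rose and 0 fell. Cdkn1c encodes p57, an inhibitor of cyclin-dependent kinases. Cdkn1c read 8.30, 8.76, 8.65 and 8.63 on control arrays 1 to 4 and 9.53, 9.40, 9.65 and 9.73 on knock-down arrays 1 to 4. Every knock-down array stood above every control array, with a change of 0.99 ± 0.11 (adjusted p = 0.00107), or 1.99-fold. Phlda2, which limits the growth of the placenta, read 12.37, 12.45, 12.60 and 12.78 in the control and 12.95, 12.87, 13.34 and 13.20 in the knock-down. Its groups were separate too, but the smaller rise of 0.54 ± 0.13 (adjusted p = 0.0287) no longer passed the test when any of control replicates 1, 2 or 3 or knock-down replicates 3 or 4 was left out, with adjusted p up to 0.0805. Thus the growth inhibitors of this cluster were both higher, with that limit for Phlda2.

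The other genes of the cluster did not pass the test. Ascl2, a transcription factor of the trophoblast, read 6.18, 6.10, 5.64 and 5.94 in the control and 5.53, 5.52, 5.62 and 5.92 in the knock-down. Its change was -0.32 ± 0.14 (adjusted p = 0.209), with -0.62 (adjusted p = 0.0063) in replicates 1 and 2 and -0.02 (adjusted p = 0.944) in replicates 3 and 4. The difference between these sets did not pass the test (adjusted p of the interaction in limma = 0.268). Tspan32, a tetraspanin of blood cells, read 5.20, 5.54, 4.77 and 5.30 in the control and 5.93, 5.41, 6.36 and 6.69 in the knock-down, a change of 0.89 ± 0.29 (adjusted p = 0.0911), and knock-down replicate 2 lay within the range of the controls. Without that array the adjusted p of Tspan32 was 0.0273. Cd81, a tetraspanin at the edge of the domain, was the brightest gene here and read 13.30, 13.28, 13.03 and 13.09 in the control and 13.31, 13.33, 13.24 and 13.12 in the knock-down, with a change of 0.07 ± 0.08 (adjusted p = 0.738). Kcnq1ot1, the long RNA of the paternal copy that silences this domain and lies within Kcnq1, changed by 0.54 ± 0.19 (adjusted p = 0.12).

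In the neighbouring H19-Igf2 domain, where CTCF at the control region sets which gene reaches the shared enhancers, Igf2 alone could be measured. Igf2 codes for a fetal growth factor and is expressed from the paternal copy. Igf2 read 7.09, 7.20, 6.58 and 6.73 on control arrays 1 to 4 and 7.06, 7.03, 7.66 and 7.26 on knock-down arrays 1 to 4. The groups overlapped, and the change was 0.35 ± 0.19 (adjusted p = 0.337). It was -0.10 (adjusted p = 0.47) in replicates 1 and 2 and 0.81 (adjusted p = 0.0938) in replicates 3 and 4, an interaction that did not pass the test (0.12, adjusted, limma). A second probe set of Igf2 had a mean of 3.15 in both groups.

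In the Dlk1-Meg3 domain on chromosome 12 the maternal copy gives long non-coding RNAs, of which Meg3 is the first. The brightest of the 11 probe sets of Meg3 read 11.82, 11.74, 12.45 and 12.61 in the control and 12.77, 12.52, 12.89 and 12.73 in the knock-down. Its change of 0.57 ± 0.21 (adjusted p = 0.138) did not pass the test, and knock-down replicate 2 stood below control replicate 4. Yet 6 of the 11 probe sets rose, by 0.77 to 1.28, and 0 fell, though 2 of the 6 each lost the call when any of 6 arrays was left out (adjusted p up to 0.0912). Control arrays 3 and 4 read higher than control arrays 1 and 2 at the brightest probe set, and with these sets of replicates as a block its adjusted p was 0.0288. Within replicates 1 and 2 the change was 0.87 (adjusted p = 0.0121), and within replicates 3 and 4 0.28 (adjusted p = 0.209).

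The downstream maternal RNAs of the same domain were read as well. Rian, which carries small nucleolar RNAs, read 12.86, 12.64, 12.89 and 12.92 in the control and 13.10, 13.20, 13.22 and 13.08 in the knock-down, and rose by 0.32 ± 0.07 (adjusted p = 0.0177), a call lost without knock-down replicate 2 (adjusted p = 0.0537, limma). Mirg, which carries microRNAs, changed by 0.58 ± 0.25 (adjusted p = 0.218) over all arrays, and rose by 0.71 (adjusted p = 0.025) within replicates 1 and 2 and by 0.45 (adjusted p = 0.0492) within replicates 3 and 4. Dlk1, a paternal inhibitor of Notch signalling and of fat cell formation, had a mean of 3.02 in the control and 3.64 in the knock-down, with 0.61 ± 0.30 (adjusted p = 0.287). It was dim in both groups, though knock-down replicate 4 reached 4.40.

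The Ndn-Mkrn3 domain on chromosome 7, the mouse counterpart of the human Prader-Willi region, moved in both directions. Ndn encodes necdin, a MAGE family protein that binds E2F factors and slows the cell cycle in neurons. Ndn read 9.78, 9.91, 9.87 and 9.80 on control arrays 1 to 4 and 11.05, 11.20, 11.01 and 10.96 on knock-down arrays 1 to 4. The change was 1.22 ± 0.06 (adjusted p = 2.33e-05), or 2.32-fold, with little spread within either group. All 5 probe sets of Ndn with signal rose, by 1.08 to 1.22, while the remaining 3 had means near 2 in both groups.

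**Figure D2:**
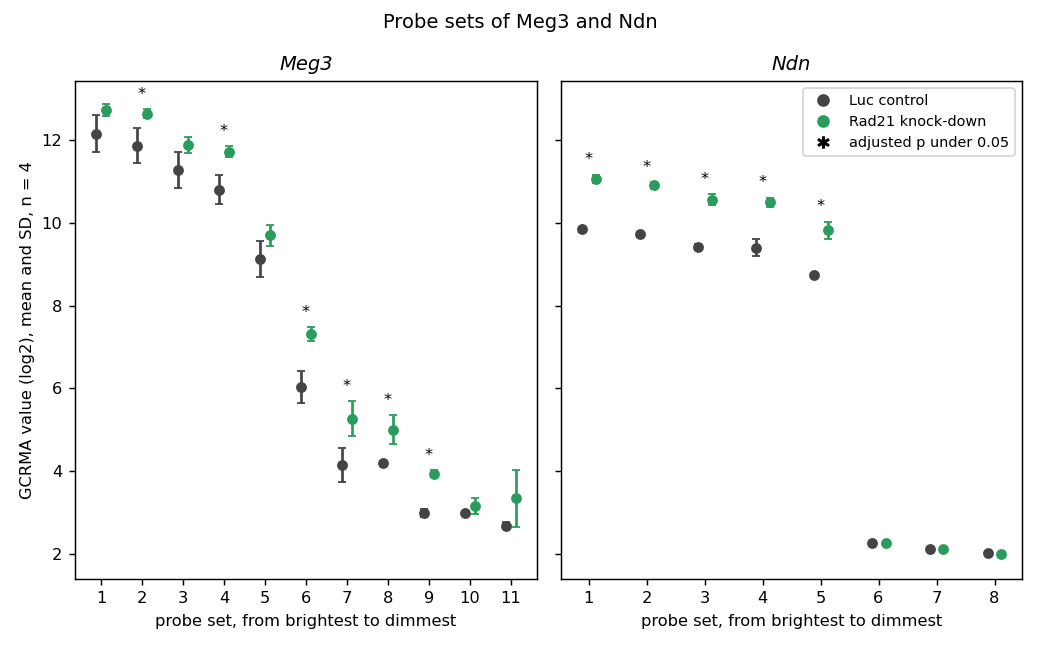
Mean GCRMA value (log2) of every probe set of Meg3 (11) and Ndn (8), ordered from the brightest to the dimmest, for the control and the knock-down, with bars of 1 SD over 4 arrays. Stars mark an adjusted p under 0.05: 6 probe sets of Meg3, though not the brightest, and the 5 probe sets of Ndn above the low range.

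Mkrn3, an E3 ubiquitin ligase gene from the same paternal domain, went the opposite way. Mkrn3 read 8.47, 8.45, 8.64 and 8.41 on control arrays 1 to 4 and 7.68, 7.69, 7.70 and 7.86 on knock-down arrays 1 to 4. It fell by 0.76 ± 0.06 (adjusted p = 0.000247, limma), the largest fall of the set, to 59.1% of the control, with separate groups. Magel2, which lies between Ndn and Mkrn3 with no protein-coding gene in either gap, read 6.37, 6.34, 6.48 and 6.42 in the control and 6.36, 6.36, 6.56 and 6.40 in the knock-down and changed by 0.02 ± 0.05 (adjusted p = 0.949). Thus 3 adjacent paternal genes gave a rise, a change within the spread and a fall.

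Peg12, the next paternal gene beyond Mkrn3, read 4.52, 4.51, 4.35 and 4.003 in the control and 4.77, 4.56, 5.12 and 4.98 in the knock-down. Its groups did not overlap, but the change of 0.51 ± 0.16 (adjusted p = 0.0739) missed the threshold. It passed under 4 alternatives, with adjusted p from 0.0221 to 0.0465: array weights, a filter at a mean of 4, the mean of all probe sets per gene, and without knock-down replicate 2. Peg12 has 1 probe set, so the filter and the mean per gene left its change at 0.51 and are no separate check of it. Ube3a, a ubiquitin ligase gene that is imprinted in neurons only, read 12.68, 12.66, 12.79 and 12.70 in the control and 12.75, 12.85, 12.76 and 12.73 in the knock-down, with a change of 0.07 ± 0.04 (adjusted p = 0.379). Its neighbour Atp10a, a lipid flippase gene also described as maternal, rose by 1.89 ± 0.26 (adjusted p = 0.00259), from 5.30 to 7.19. Snrpn was dim at its only probe set of a single symbol, and the 6 others, shared with Snurf, were not used.

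In the Sgce-Peg10 domain on chromosome 6, 3 of 5 genes rose and 0 fell. Sgce, coding for epsilon-sarcoglycan, and Peg10, a gene derived from a retrotransposon and needed in the placenta, lie head to head and are expressed from the paternal copy. Sgce read 7.09, 7.06, 6.64 and 6.37 on control arrays 1 to 4 and 8.61, 8.67, 8.83 and 8.66 on knock-down arrays 1 to 4. The groups were far apart, with a change of 1.91 ± 0.16 (adjusted p = 0.000327), or 3.75-fold. Peg10 read 6.66, 6.71, 5.67 and 5.97 in the control and 7.27, 7.05, 7.32 and 7.05 in the knock-down, with no overlap and a smaller change of 0.92 ± 0.24 (adjusted p = 0.0423). Its control arrays were spread over more than 1 log2 unit, and the call of Peg10 was lost without any of control replicates 3 or 4 or knock-down replicates 1 to 4, with adjusted p up to 0.11.

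Ppp1r9a, the maternal neighbour of Peg10 and the gene of neurabin, an actin-binding protein, rose too. Ppp1r9a read 7.71, 7.55, 7.31 and 7.57 on control arrays 1 to 4 and 8.33, 8.27, 8.34 and 8.35 on knock-down arrays 1 to 4. The change was 0.79 ± 0.08 (adjusted p = 0.000615), and 2 of its 5 probe sets rose, the other 3 having means under 3. Calcr, the calcitonin receptor gene, read 4.90, 4.42, 4.20 and 3.998 in the control and 4.08, 4.60, 4.27 and 4.83 in the knock-down, with a change of 0.07 ± 0.23 (adjusted p = 0.952) and mixed groups. So the rises in this domain were in genes described as paternal and as maternal, though the allele in use was not measured.

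Peg3, a paternal zinc finger gene on chromosome 7, fell slightly but evenly at its brightest probe set. Peg3 read 10.66, 10.68, 10.65 and 10.66 on control arrays 1 to 4 and 10.37, 10.49, 10.43 and 10.34 on knock-down arrays 1 to 4. The control arrays lay between 10.65 and 10.68, and the change was -0.25 ± 0.03 (adjusted p = 0.0021). A second of its 5 probe sets fell, by 0.40 ± 0.09 (adjusted p = 0.0268, limma), a call lost without any of 5 arrays (adjusted p up to 0.073). Another, with a mean of 9.40, changed by -0.30 ± 0.12 (adjusted p = 0.183, limma) with overlapping groups. Usp29, which starts beside Peg3 on the other strand, and Zim1 were dim.

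Igf2r, the maternal receptor that carries IGF2 to the lysosome, rose on chromosome 17. Igf2r read 8.52, 8.53, 8.76 and 8.85 on control arrays 1 to 4 and 9.38, 9.29, 9.02 and 9.05 on knock-down arrays 1 to 4. Both of its probe sets rose, the brighter by 0.52 ± 0.11 (adjusted p = 0.0174). The change was 0.81 (adjusted p = 0.0041) in replicates 1 and 2 and 0.23 (adjusted p = 0.0785) in replicates 3 and 4, and the interaction passed the test (adjusted p = 0.0394, limma). The call was lost without control replicate 1, control replicate 2 or knock-down replicate 2, with adjusted p up to 0.0525. Airn, the paternal antisense RNA that overlaps Igf2r, was dim on all 5 of its probe sets.

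Gnas, which codes for the stimulatory G protein alpha subunit, read 12.60, 12.62, 12.39 and 12.47 in the control and 13.03, 13.05, 12.89 and 12.73 in the knock-down. It rose by 0.41 ± 0.08 (adjusted p = 0.0165), with separate groups, at 1 of 5 probe sets, the other 4 being dim. That probe set can match several transcripts of the locus, so the transcript that rose is not known, and the call was lost without control replicate 4 (adjusted p = 0.0506, limma).

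Several imprinted genes lie inside or across another gene, and 4 such pairs had both genes above the low range in at least 1 group. Nnat and Nap1l5 passed that rule only through the knock-down arrays, where they were high, so no share of pairs is drawn from it. One gene rose and the other fell for Nnat and Blcap, Mest and Copg2, and Mcts2 and H13. Nnat, coding for the membrane proteolipid neuronatin, sits in an intron of Blcap on chromosome 2. Nnat read 3.77, 3.66, 3.56 and 3.57 in the control and 4.74, 4.39, 4.68 and 4.67 in the knock-down. It rose by 0.98 ± 0.09 (adjusted p = 0.000355), out of the low range. The host Blcap, a gene known from bladder cancer, read 9.34, 9.33, 9.37 and 9.43 in the control and 9.06, 8.93, 8.98 and 8.96 in the knock-down, and fell by 0.38 ± 0.04 (adjusted p = 0.00045, limma). Both pairs of groups were separate.

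Mest, a paternal gene for a hydrolase-like protein, and Copg2, a coat protein gene expressed from the maternal copy in some tissues, overlap at their ends on chromosome 6. Mest read 10.30, 10.29, 10.52 and 10.36 on control arrays 1 to 4 and 10.93, 10.91, 11.30 and 11.27 on knock-down arrays 1 to 4. Mest rose by 0.73 ± 0.11 (adjusted p = 0.00333). Copg2 read 9.97, 9.93, 9.94 and 9.75 in the control and 9.63, 9.75, 9.55 and 9.58 in the knock-down. The fall of Copg2 by 0.27 ± 0.06 (adjusted p = 0.0251, limma) was not stable: control replicate 4 and knock-down replicate 2 overlapped, and leaving out any of 6 arrays (control replicates 1, 2 and 3, knock-down replicates 1, 3 and 4) ended the call, with adjusted p up to 0.0694.

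Mcts2 and Nap1l5 are retrogenes, copies of processed RNAs that settled in an intron of a host. Mcts2 lies in H13, a signal peptide peptidase gene on chromosome 2. Mcts2 read 11.41, 11.52, 11.62 and 11.69 on control arrays 1 to 4 and 11.02, 10.94, 11.04 and 10.90 on knock-down arrays 1 to 4. It fell by 0.58 ± 0.06 (adjusted p = 0.000882, limma), to 66.7% of the control, while its host H13 rose by 0.45 ± 0.04 (adjusted p = 0.000416), from 8.64 to 9.09. Mcts2 derives from the X-linked Mcts1, and whether its probe set reads that gene as well was not tested.

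Nap1l5, a nucleosome assembly protein gene within Herc3 on chromosome 6, rose, while its host did not pass the test. Nap1l5 read 3.13, 3.12, 3.13 and 2.95 on control arrays 1 to 4 and 4.69, 5.43, 5.07 and 5.06 on knock-down arrays 1 to 4. The control values lay in the low range, so the change of 1.98 ± 0.14 (adjusted p = 0.000148) depends on how GCRMA treats background. Herc3 read 7.54, 7.42, 7.44 and 7.20 in the control and 7.98, 7.996, 7.48 and 7.80 in the knock-down, and its change of 0.41 ± 0.13 (adjusted p = 0.075) did not pass the test. Commd1, the host of the retrogene Zrsr1 on chromosome 11 and a regulator of NF-kappaB, changed by -0.11 ± 0.04 (adjusted p = 0.166), and with the sets of replicates as a block its adjusted p was 0.015. A second probe set of Commd1, with a mean of 11.78, changed the other way, by 0.10 ± 0.06 (adjusted p = 0.446, limma). Whether the probe sets of an overlapping pair can pick up each other's transcripts was not tested.

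**Figure D3:**
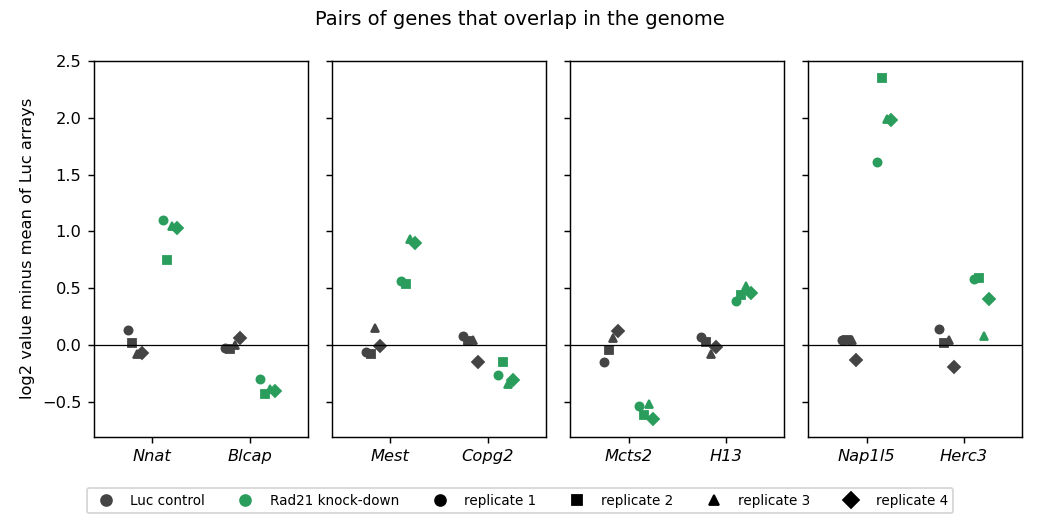
Values of 8 genes in 4 overlapping pairs on each array, as log2 value minus the mean of the control arrays, with a marker shape per replicate. In the pairs Nnat and Blcap, Mest and Copg2, and Mcts2 and H13 the knock-down arrays lie on opposite sides of 0 for the 2 genes, and in Nap1l5 and Herc3 they lie above 0 for both.

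Of the remaining genes, Gatm, described as maternal and coding for the first enzyme of creatine synthesis, rose most. Gatm read 4.13, 4.37, 3.80 and 3.94 on control arrays 1 to 4 and 5.92, 5.70, 5.59 and 6.23 on knock-down arrays 1 to 4. The change was 1.80 ± 0.17 (adjusted p = 0.000501), or 3.49-fold, from near the low range. Impact, a paternal inhibitor of the kinase GCN2 and so of the amino acid stress response, read 12.34, 12.40, 12.25 and 12.17 in the control and 12.90, 12.89, 12.65 and 12.60 in the knock-down, and rose by 0.47 ± 0.09 (adjusted p = 0.00881) at 1 of 3 probe sets, the others being dim.

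Grb10, an adaptor that damps insulin receptor signalling, is expressed from the maternal copy outside the brain. Grb10 read 11.56, 11.67, 12.07 and 12.15 on control arrays 1 to 4 and 11.14, 11.19, 11.86 and 11.71 on knock-down arrays 1 to 4. Replicates 3 and 4 read higher than replicates 1 and 2 in both groups, the groups overlapped, and the change of -0.39 ± 0.21 (adjusted p = 0.354) did not pass the test. With the sets of replicates as a block its adjusted p was 0.00212. The genes on either side of Grb10 on chromosome 11 went apart, since Ddc, coding for an enzyme of dopamine synthesis, rose by 0.55 ± 0.07 (adjusted p = 0.00165), and Cobl, an actin nucleator gene, fell by 1.90 ± 0.12 (adjusted p = 9.21e-05, limma).

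**Figure D4:**
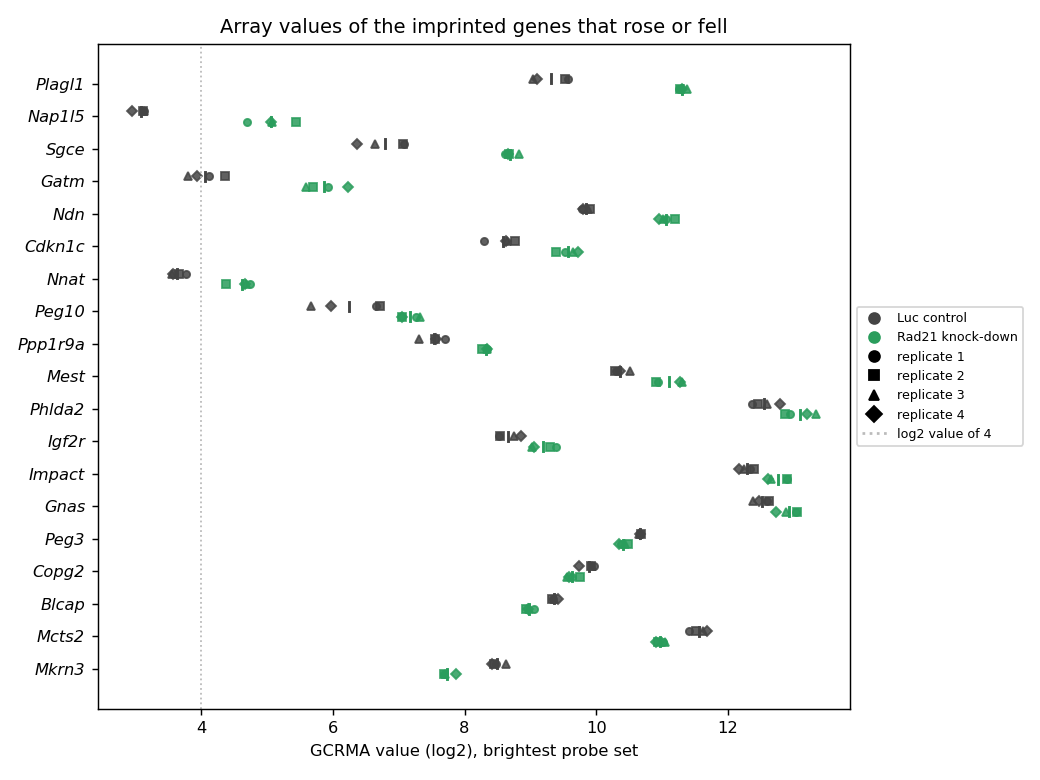
GCRMA values (log2) of the 14 imprinted genes that rose and the 5 that fell, at the brightest probe set, on each of the 4 control and 4 knock-down arrays, with vertical bars at the group means and a dotted line at 4. The groups are separate for each gene except Copg2, and Nap1l5 and Nnat start below the line in the control.

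A longer list of other imprinted genes and domain neighbours, 45 in number, had 35 measured. Of these 7 rose and 3 fell, against 10.1% and 12.6% of all genes, and the median change was 0.03. Besides Atp10a, Ddc, H13 and Rian, the rises were those of Sfmbt2, a Polycomb-related gene of the trophoblast (0.78 ± 0.12, adjusted p = 0.00377), and Slc38a4, an amino acid transporter gene (0.57 ± 0.05, adjusted p = 0.000311), with Inpp5f the smallest (0.18 ± 0.05, adjusted p = 0.0397), a call lost without any of 6 arrays, all but control replicate 2 and knock-down replicate 1 (adjusted p up to 0.0998). Besides Cobl, the falls were Zdbf2 (-0.56 ± 0.08, adjusted p = 0.00354) and Tssc4 (-0.28 ± 0.08, adjusted p = 0.046), whose call was lost when any of 7 arrays, all but control replicate 3, was left out (adjusted p up to 0.115). Of the 35 genes 16 were dim in both groups.

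Among genes that set, read or keep imprints, 29 were measured in a list of 30. Of these 8 fell (27.6%) and 1 rose (3.45%), against 12.6% and 10.1% of all genes, with a median change of 0.01. In 26 of the 29 at least 1 group had a mean of at least 4. With probe sets under a mean of 4 left out, 24.9% of all genes fell and 19.4% rose. The share of the 29 that fell lay near the first value, and the share that rose lay below the second. These shares of the list were taken over all 29 genes, dim ones included, and the differences were not tested. Tet2 and Tet1, which oxidise methylated cytosine, fell by 1.52 ± 0.10 and 0.58 ± 0.10 on the log2 scale (adjusted p = 8.91e-05 and 0.00751, limma). Dppa3, which shields imprints from demethylation after fertilisation, read 11.10, 11.29, 11.31 and 11.42 in the control and 10.43, 10.25, 10.35 and 10.24 in the knock-down. It fell by 0.96 ± 0.07 (adjusted p = 0.000194, limma), with separate groups.

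Zfp57, the zinc finger gene whose protein binds the methylated letters shown above, read 7.82, 7.72, 8.07 and 8.17 in the control and 7.24, 7.06, 6.99 and 7.18 in the knock-down. It fell by 0.83 ± 0.11 (adjusted p = 0.0022, limma). Setdb1 and Ehmt2, which methylate histone H3 at lysine, changed by -0.47 ± 0.04 and -0.49 ± 0.06 (adjusted p = 0.000183 and 0.00164, limma), and Zfp42 and Eed, at -0.46 ± 0.04 and -0.28 ± 0.03, also fell. The only rise was that of Dnmt3l, the partner of the de novo methyltransferases, at 0.55 ± 0.03 (adjusted p = 5.02e-05). Dnmt1, the maintenance methyltransferase gene, changed by -0.06 ± 0.05 (adjusted p = 0.596), Uhrf1, its recruiter, by 0.01 ± 0.07 (adjusted p = 0.975), Trim28, the partner of ZFP57, by -0.11 ± 0.04 (adjusted p = 0.177), and Ctcf by 0.11 ± 0.04 (adjusted p = 0.159), none of which passed the test.

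**Figure D5:**
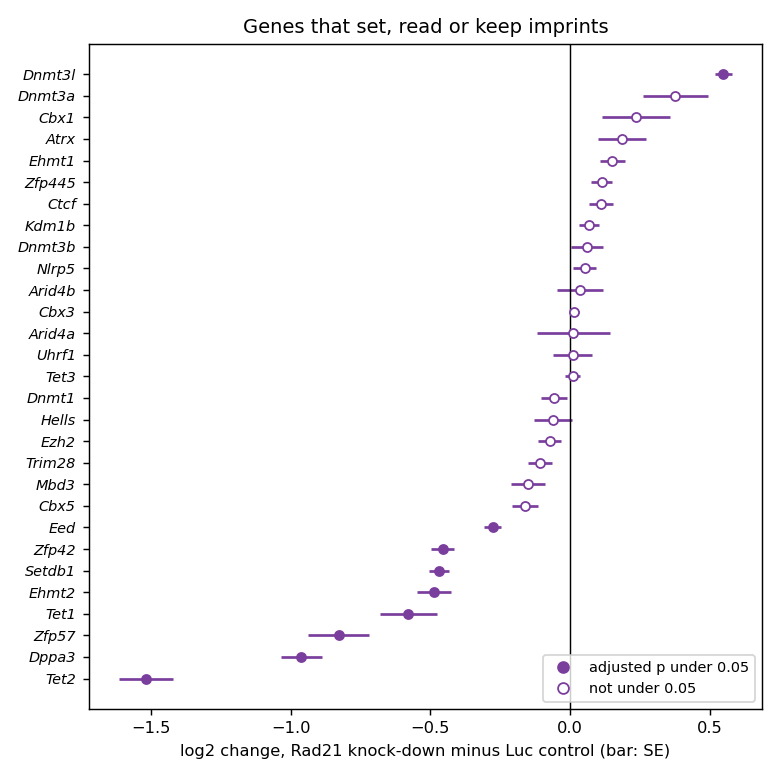
Log2 change, knock-down minus control, of the 29 measured genes that set, read or keep imprints, with bars of 1 SE and 4 arrays per group. Filled points have an adjusted p under 0.05: 8 lie to the left of 0, from Tet2 to Eed, and Dnmt3l alone to the right.

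Markers of cell identity moved alongside these genes. The ESC list shares Zfp42 with the list of imprint regulators, so its fall counts in both. All 10 ESC markers had signal in both groups. Of these 8 fell, from Fgf4 at -1.71 ± 0.07 to Dppa5a at -0.20 ± 0.03, and 0 rose, and their summed level, the log2 of the sum of the unlogged values, went from between 17.75 and 17.80 on the control arrays to between 17.43 and 17.47 on the knock-down arrays. Of 12 markers of extraembryonic endoderm 4 rose, and the summed level went from 9.46 to 9.70 up to 10.17 to 10.28, with 7 dim in both groups. The 4 were Foxa2, a pioneer factor gene that went from 2.77 to 7.40 (4.63 ± 0.16, adjusted p = 9.88e-06), Dab2 (2.06 ± 0.20, adjusted p = 0.000542), Col4a1 (1.16 ± 0.09, adjusted p = 0.000228) and Amn (0.90 ± 0.17, adjusted p = 0.0119), whereas Gata4, Gata6 and Sox17 were among the dim genes. Of 12 trophoblast markers Krt7 (2.83 ± 0.14, adjusted p = 2.81e-05) and Cdx2 (1.10 ± 0.15, adjusted p = 0.00244) rose and 1 fell, with summed levels of 12.91 to 13.41 in the control and 12.91 to 13.57 in the knock-down and 5 dim. Mesoderm markers gave 2 rises in 10 with 8 dim (5.94 to 6.34 against 6.71 to 6.89), neural markers 2 rises and 3 falls in 9 (14.10 to 14.27 against 13.67 to 13.89), and fibroblast markers 0 rises and 1 fall in 10 with 8 dim (6.69 to 7.14 against 6.90 to 7.12). The part of these shifts in the changes of the imprinted genes was not tested.

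The counts were also taken within each set of replicates. In replicates 1 and 2 alone 15 imprinted genes rose and 5 fell, and in replicates 3 and 4 alone 11 rose and 3 fell, with 9.03% and 10.8% of all genes up and down in the first set and 7.67% and 7.67% in the second. Each set is 2 arrays against 2. The rises of Cdkn1c, Sgce, Ppp1r9a, Ndn, Mest, Nnat, Nap1l5, Impact and Gatm and the falls of Blcap and Mcts2 passed the test within either set and under all 20 alternatives tried at the same threshold. For Nap1l5 and Nnat the filter at a mean of 4 is no check, since they passed it only through the knock-down arrays.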

How the data were processed

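Total RNA of 8 R1/E cultures, 4 per esiRNA, was hybridised to single-colour Affymetrix arrays. Deposited values were log2 signals that the authors computed by GCRMA in Partek 6.4, per the submitters' processing notes, so all arrays share a common distribution (medians 3.08 to 3.16) and a shift of the whole transcriptome would not be seen. Scanner files were not used here, and the precision is limited by 4 arrays per group. The methods give 250 ug of RNA per labelling reaction where the labels give ng.

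Of 45101 probe sets 64 controls were left out. Symbols came from the platform annotation, which named 1 gene for 34945 probe sets, several for 932 and none here for 9160, and all 41 measured members matched RefSeq by Entrez ID with 0 changed symbols. Groups and replicate numbers came from the labels. Knock-down and control were compared over all 45037 probe sets with limma 3.58.1 (lmFit and eBayes, two-sided, R 4.3.3) without a block, in place of the plain analysis of variance that the methods state, and adjusted by Benjamini-Hochberg with a threshold of 0.05. Tables were handled with data.table (version 1.17.8) and pandas 2.3.3 and plots drawn with matplotlib 3.10.9 in Python 3.11.15. The steps were tested on simulated data. Within a group arrays correlated at 0.998 to 0.999, and 0 pairs held identical values.

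The members, gene lists, sets of replicates and tests were chosen with earlier results of these data known. All 46 genes were accounted for. Array values are given for called genes with a change of at least 0.5 and for genes of the 8 main clusters with a mean of at least 4, and up to 6 called genes per direction are named from the lists of imprint regulators and of other imprinted genes. Values given beyond that rule (Grb10, Blcap, Copg2, Impact, Herc3, Commd1, Rian, Mirg, Kcnq1ot1, Dlk1, Inpp5f, Dppa3, Zfp57, Zfp42, Eed, the uncalled regulators and the cell type markers) were chosen after they were seen. A summed level is the log2 of the sum of the unlogged values of the list. Promoters were searched on both strands. Alternatives were the plain analysis of variance, a trended and robust prior, blocks by replicate number and by set, each set alone, a filter at a mean of 4, array weights, quantile normalization, centring on the bright probe sets, other rules for probe sets, a threshold of 0.01 and leaving out each array.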

Additional observations from a re-analysis of the deposited data

Results flagged for a closer look

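Each of the 41 genes was examined in both groups for 1 array far from the other 3 by Dixon's ratio at its 95% critical value. Of 82 groups 4 held such an array, and chance flags about 1 in 20 groups. Mkrn3 read 7.86 on knock-down array 4 and 7.68 to 7.70 on the other knock-down arrays, all below the controls. Nap1l5 read 2.95 on control array 4 and 3.12 to 3.13 on the other controls, all in the low range. Dlk1 read 3.44 on control array 4 against 2.84 to 2.92 on the other controls. Slc22a18 read 2.78 on knock-down array 1 against 2.59 to 2.61 on the other knock-down arrays.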

How the results depend on the processing

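Under the alternatives, 10 to 17 imprinted genes rose and 3 to 7 fell, each gene keeping its direction wherever it was called. Over all genes the share that rose ran from 6.11% to 19.4% and the share that fell from 7.52% to 24.9%. The low ends came with the threshold of 0.01 and the high ends with the filter at a mean of 4, where 17 of 30 imprinted genes rose. The count that fell was 3 in replicates 3 and 4 alone, where 6 of the other imprinted genes were called in place of 10. At an adjusted p under 0.01, 3893 probe sets were called in place of 6697. Leaving out 1 array at a time gave 12 to 14 rises and 4 to 5 falls, with 8.07% to 9.23% and 10.1% to 11.7% of all genes. Over the 19 called genes, 14 results from other settings and 21 with an array left out no longer passed the threshold, while 214 and 131 did, and 0 turned direction. Among the 22 uncalled genes, 15 results from other settings and 2 with an array left out passed it, those of Grb10, Meg3, Commd1, Ascl2, Tspan32 and Peg12. The genes that lost calls were Phlda2, Peg10, Mkrn3, Peg3, Igf2r, Gnas, Copg2 and Plagl1. Replicate numbers did not pair the samples: the correlations of deviations between same-numbered arrays were 0.02, 0.13, 0.07 and 0.13, and not every array correlated best with its own number. With a replicate block 12 genes rose and 6 fell, against 9.40% and 11.4% of all genes, Grb10 being gained and Peg10 and Igf2r lost. With the sets of replicates as a block 15 rose and 7 fell, against 12.2% and 14.9% of all genes. Meg3, Commd1 and Grb10 were gained there. Dim probe sets limit what can be said of the 11 genes in the low range, where a change would be compressed, and alleles, methylation and isoforms were not measured.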
